A study of Rattus norvegicus with 12 samples.

Results

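Of the 14217 genes measured by a probe set with 1 gene symbol, 7 genes are described here that lay lower in failing than in control rat hearts and that are not known as parts of the contractile, electrical or energy-yielding machinery of heart muscle. They are Rev3l, Dusp23, Lpar6, Pitpnc1, Acyp1, Zfp955a and Pmm2. They are among the 13 largest falls without overlap in the brighter genes. The 7 are not every such gene, since others of the 13, such as the autophagy protease gene Atg4d, lie outside that machinery too. In the brightest probe set of each of the 7 genes every failing heart lay below every control heart. Those log2 intensities chose them, and are therefore given as a description, without a test. The 7 genes had 8 probe sets, of which Pmm2 had 2 and the other genes 1 each, so that agreement between probe sets could be examined for Pmm2 alone.

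Heart tissue was profiled on 12 arrays of 1 colour, 1 array for each heart, namely 6 failing hearts and 6 control hearts, described as biological replicates. A free-text label calls the source a cell line, while the tissue label reads heart. The study's title is about the spontaneously hypertensive rat, which becomes hypertensive without treatment, and its move from compensated hypertrophy into systolic failure. No source used here states the strain, age or treatment of the control animals, or the age of the failing ones. Groups of failing animals given captopril, an inhibitor of angiotensin-converting enzyme, with or without butyrate, are named in the protocol and were not analysed here.

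The genes act in unrelated processes. Rev3l encodes the catalytic subunit of DNA polymerase zeta, which copies past damaged bases together with the scaffold Rev1 and the subunits Mad2l2, Pold2 and Pold3. Dusp23 is a small atypical dual specificity phosphatase, a protein that removes phosphate from tyrosine and from serine or threonine. Lpar6 is a cell surface receptor for lysophosphatidic acid, a lipid signal that acts through G proteins and the GTPase RhoA, and Pitpnc1 is a soluble carrier of phosphatidylinositol between membranes. Acyp1 is an acylphosphatase, an enzyme that splits acyl phosphates. Pmm2, phosphomannomutase, makes mannose-1-phosphate, from which cells build the mannose donors of N-glycosylation, and its loss in humans causes a congenital disorder of glycosylation. Zfp955a carries the name of a zinc finger protein.

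The regions in front of the genes were read from RefSeq (build GRCr8), as windows of 300 bases that begin 250 bases before a start of transcription, and all 7 genes matched. Those of Rev3l (chr20:44686690-44686989, plus strand), Dusp23 (chr13:87632351-87632650, minus strand), Acyp1 (chr6:110657149-110657448, minus strand, the first of 3 nearby starts listed) and Lpar6 (chr15:54825860-54826159, plus strand) are shown because they span the range found among the 7 genes. They are written 5′ to 3′ along the gene. Capitals mark matches, on either strand, to the GC box GGGCGG, the CCAAT box CCAAT or TGACG, the first bases of a cyclic AMP response element.
Rev3l: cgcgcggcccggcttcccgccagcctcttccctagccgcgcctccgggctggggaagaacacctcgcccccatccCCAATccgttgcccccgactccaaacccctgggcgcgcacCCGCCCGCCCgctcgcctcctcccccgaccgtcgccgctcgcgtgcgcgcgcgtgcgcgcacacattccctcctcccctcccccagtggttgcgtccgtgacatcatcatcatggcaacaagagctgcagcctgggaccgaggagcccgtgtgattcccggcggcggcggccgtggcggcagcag
Dusp23: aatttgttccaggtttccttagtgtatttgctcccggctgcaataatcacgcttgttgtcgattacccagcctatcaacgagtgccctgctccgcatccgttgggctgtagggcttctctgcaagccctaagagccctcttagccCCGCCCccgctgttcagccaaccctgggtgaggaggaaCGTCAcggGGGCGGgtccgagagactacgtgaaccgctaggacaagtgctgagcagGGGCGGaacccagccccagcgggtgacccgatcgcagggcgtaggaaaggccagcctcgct
Acyp1: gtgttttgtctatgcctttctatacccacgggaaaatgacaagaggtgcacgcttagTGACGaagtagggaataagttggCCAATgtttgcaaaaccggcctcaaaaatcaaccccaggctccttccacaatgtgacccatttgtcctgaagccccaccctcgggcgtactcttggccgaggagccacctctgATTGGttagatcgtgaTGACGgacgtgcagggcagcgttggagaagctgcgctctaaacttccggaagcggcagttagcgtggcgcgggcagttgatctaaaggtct
Lpar6: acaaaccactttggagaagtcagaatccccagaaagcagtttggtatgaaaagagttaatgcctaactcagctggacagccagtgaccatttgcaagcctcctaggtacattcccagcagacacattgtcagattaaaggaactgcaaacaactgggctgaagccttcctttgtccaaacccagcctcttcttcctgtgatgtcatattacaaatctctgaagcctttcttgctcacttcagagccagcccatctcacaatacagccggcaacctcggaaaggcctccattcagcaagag

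CpG counts in these windows lay above the median of all windows in every gene but Lpar6, and no motif searched was found in all 7 genes. Rev3l had 39 CpG dinucleotides and a G and C content of 73.3%, more CpGs than 96.2% of the 33469 windows in the table. Lpar6 had 2 CpGs and 47.3% G and C, more CpGs than 13.6% of windows, and held no match to any motif searched. The other genes lay between, with 12 CpGs in Zfp955a, 17 in Acyp1, 20 in Dusp23, 21 in Pmm2 and 24 in Pitpnc1, against a median of 7 over all windows. A GC box was found in Rev3l, Dusp23 and Pmm2 (3 of 7 genes; 33.1% of all windows), and a CCAAT box in Rev3l, Pitpnc1, Acyp1 and Zfp955a (4 of 7; 37.5% of all windows). TGACG was found in Dusp23 and Acyp1 (2 of 7; 21.2% of all windows). The TATA box TATAAA and the E-box CACGTG were found in 0 of the 7 (14.2% and 6.42% of all windows). The 2 GC box matches of Rev3l overlap each other. A match of letters is a description of the sequence alone.

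Each array's trimmed mean intensity lay between 500.19 and 500.23, which shows a common scaling, and Spearman correlations between arrays ran from 0.915 to 0.945 with 0 identical pairs. Brighter genes are the 7109 with a mean log2 intensity over the 12 arrays of at least 8.21 (intensity 297), the level of the median gene. In a principal component analysis of these genes the first component, with 41.2% of the variance, ran from -6.1 to 28.0 in failing hearts and from -24.7 to 8.0 in control hearts. Failing replicate 5, at -6.1, and control replicate 4, at 8.0, stood on the side of the other group, and control replicate 4 stood apart on the second component at -26.3. Over all 14217 genes limma, a linear model with moderated variance, called 0 genes lower (0%) and 0 higher at an adjusted p under 0.05 ( lowest adjusted p = 0.0671; 2710 genes at an unadjusted p under 0.05). Among the brighter genes limma called 336 lower (4.73%) and 384 higher (5.4%) in failing hearts, and with median centring of the arrays it called 178 lower and 335 higher. Groups did not overlap, with failing hearts lower, in 105 of all genes (0.739%) and 80 of the brighter genes (1.13%), and with failing hearts higher in 150 of the brighter genes (2.11%). These shares are printed for scale, since the 7 genes were chosen from among the 80.

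The defining genes of heart muscle were present, all 9 listed ones among the brighter genes. The intensities of 9 cardiomyocyte markers summed to between 238471 and 374380 in failing hearts and to between 230704 and 378237 in control hearts, and 0 of them were called in either direction. Sums of 8 fibroblast markers ran from 52006 to 116489 in failing and from 44552 to 78396 in control hearts (1 of 8 called higher). Those of 7 macrophage markers ran from 5548 to 14961 in failing and from 4225 to 9925 in control hearts (2 called higher of the 5 that were brighter genes), and those of 4 smooth muscle markers from 2522 to 5885 in failing and from 1598 to 2848 in control hearts (1 called higher of the 3 that were brighter genes). Of 7 endothelial markers 1 was called lower and 1 higher, with sums from 12644 to 17023 in failing and from 11298 to 13868 in control hearts. The markers of T and B cells, adipocytes and Schwann cells were all dimmer than the brighter genes, with sums of at most 337 in any failing and 179 in any control heart. The difference between the 3′ and 5′ control probe sets of Gapdh, a sign of RNA integrity, was 0.27 to 0.43 in failing and 0.23 to 0.53 in control hearts (log2). For hexokinase it was larger, 0.89 to 1.47 in failing and 0.86 to 1.98 in control hearts, the highest in control replicate 2. The part of cell make-up and RNA integrity in the values below was not tested. In whole tissue, fewer cells of a type and less RNA per cell cannot be told apart.

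Rev3l, the polymerase gene, had the largest difference of the 7. Its log2 intensity ran from 8.54 to 9.62 with a median of 8.90 in failing hearts, against 9.77 to 10.77 with a median of 10.31 in control hearts. Failing replicate 5 was the highest of its group and control replicate 4 the lowest of its group, and the groups were parted by 0.16. The group means were 8.96 ± 0.40 in failing and 10.24 ± 0.38 in control hearts (log2, SD, n = 6 each), a difference of -1.28 ± 0.23 (SE) or 58.8% less intensity in failing hearts. On the linear scale this was 513.9 ± 154.4 in failing and 1240.7 ± 324.0 in control hearts. Without failing replicate 5 the difference was -1.41, and without control replicate 4 it was -1.37. Of the 7109 brighter genes 8, Rev3l included, had a fall of this size or more.

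Among the signalling genes, the phosphatase gene Dusp23 ran from 8.12 to 8.96 in failing hearts (median 8.64) and from 9.19 to 9.72 in control hearts (median 9.50). Failing replicate 3 came closest to the control hearts, and control replicates 3 and 4, at 9.21 and 9.19, closest to the failing ones, with a gap of 0.23. Means were 8.58 ± 0.28 in failing and 9.47 ± 0.25 in control hearts, a difference of -0.89 ± 0.15 (45.9% less). Leaving out 1 heart at a time gave -0.96 to -0.79.

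The receptor gene Lpar6 ran from 7.47 to 8.70 in failing hearts (median 8.43) and from 8.84 to 9.61 in control hearts (median 9.18). Failing replicate 6, at 7.47, lay far below the other failing hearts, whose lowest was 8.35, and the groups were 0.14 apart. Means were 8.34 ± 0.45 in failing and 9.20 ± 0.25 in control hearts, a difference of -0.86 ± 0.21 (45.0% less), and of -0.69 without failing replicate 6.

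The lipid carrier gene Pitpnc1 had, among the 7 genes, the widest gap between the groups, 0.31. It ran from 9.00 to 9.51 in failing hearts (median 9.37) and from 9.82 to 10.78 in control hearts (median 9.97). Control replicate 4, at 10.78, stood above the other control hearts, which ended at 10.10. Means were 9.34 ± 0.18 in failing and 10.08 ± 0.36 in control hearts, a difference of -0.74 ± 0.17 (40.1% less). Without control replicate 4 it was -0.60, the smallest of the values with 1 heart left out.

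The acylphosphatase gene Acyp1 was the brightest of the 7 against the other genes on the arrays, its mean exceeding that of 90.2% of genes. Failing hearts lay at 10.64 to 11.37 (median 10.93) and control hearts at 11.51 to 11.91 (median 11.80). Failing replicates 2 and 5, at 11.36 and 11.37, lay near the control hearts and the other failing hearts at 10.98 or below. Means were 10.99 ± 0.31 in failing and 11.74 ± 0.17 in control hearts, a difference of -0.75 ± 0.15 (40.5% less).

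Pmm2 gave different sizes in its 2 probe sets. In the brighter one it ran from 9.20 to 9.95 in failing hearts (median 9.48) and from 9.97 to 10.36 in control hearts (median 10.14), so that the groups were parted by 0.02 alone, through failing replicate 5 at 9.95 and control replicate 5 at 9.97. Means were 9.51 ± 0.24 in failing and 10.15 ± 0.14 in control hearts, a difference of -0.64 ± 0.11 (35.9% less). The second probe set lay 1.55 lower on the log2 scale. It ran from 7.70 to 8.63 in failing hearts (median 8.24) and from 8.00 to 8.97 in control hearts (median 8.24), and the groups overlapped. Its difference was -0.16 ± 0.20, smaller than its SE, and the failing heart was the lower one in 21 of 36 pairs of a failing and a control heart. The direction of the means was the same in both probe sets, while the separation of the groups was seen in the brighter one only. With the mean of the 2 probe sets for Pmm2 the difference was -0.40 and the groups overlapped.

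The zinc finger gene Zfp955a ran from 8.14 to 8.87 in failing hearts (median 8.56) and from 9.00 to 9.44 in control hearts (median 9.20). Failing replicates 1 and 5, at 8.83 and 8.87, came closest to the control hearts. Means were 8.52 ± 0.32 in failing and 9.20 ± 0.18 in control hearts, a difference of -0.68 ± 0.15 (37.5% less). Under median centring the groups of Zfp955a overlapped, failing hearts reaching 8.92 and control hearts beginning at 8.86, with a difference of -0.67.

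**Figure D1:**
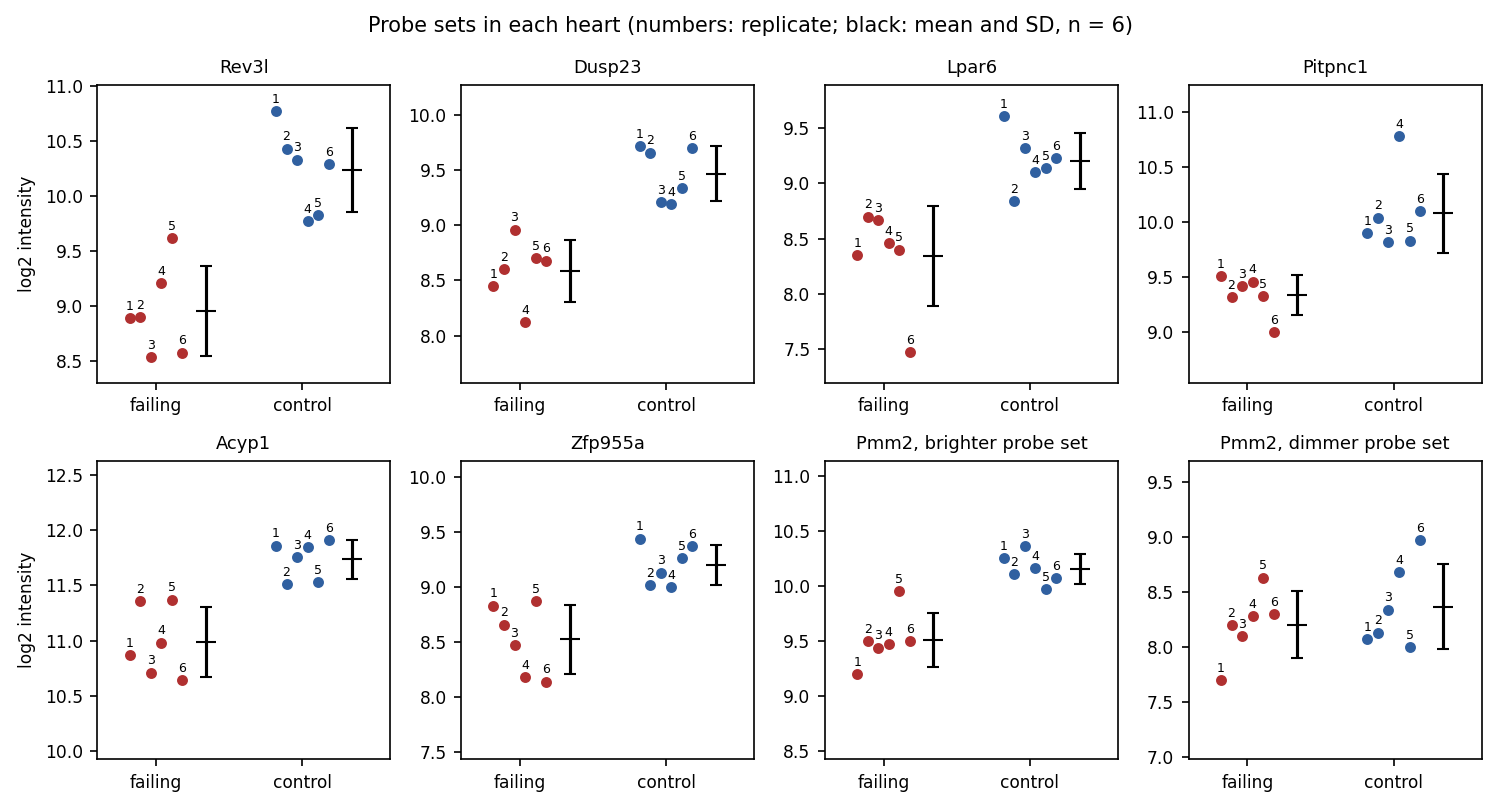
Log2 intensity of the 8 probe sets of the 7 genes in each heart, failing left of control, each panel spanning the same number of log2 units; black bars give the mean and SD of 6 hearts. Failing and control hearts do not overlap in 7 panels, as the choice of genes required, and overlap in the dimmer Pmm2 probe set (-0.16 ± 0.20).

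Between the 7 genes in size, without overlap, stood LOC100909396, Mmp15, Cmpk2, Ppargc1b, Smtn and Atg4d, with differences from -1.27 to -0.66. At the edge of the choice stood Pmm2, with the smallest difference (-0.64) and the narrowest gap (0.02). The next largest fall without overlap was that of Ndufaf4, an assembly factor of mitochondrial complex I, at -0.62, followed by Kin at -0.61 and Tnfaip3 at -0.58. Of genes with falls of at least the size of Pmm2, Eya1 came nearest to parting the groups without doing so, with failing hearts up to 8.53 and control hearts down to 8.53 and a difference of -1.07. Among the brighter genes 158 had falls of at least the size of Pmm2.

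The spread of these genes within a group is set against all brighter genes, whatever their level. It is given as a description, since groups that may not overlap limit how wide the spread can be. The pooled SD of Pmm2, 0.20, exceeded that of 33.4% of the brighter genes, and that of Rev3l, 0.39, exceeded 87.5%. Lpar6 (0.37) lay at 84.3%, and Pitpnc1 (0.29), Dusp23 (0.27), Zfp955a (0.26) and Acyp1 (0.25) between 57.5% and 68.6%.

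Deviations of single hearts from their group mean are given as a description too, since groups that may not overlap limit how far a heart can lie toward the other group. Failing replicate 6 was the lowest failing heart for Lpar6, Pitpnc1, Acyp1 and Zfp955a (4 of 7 genes) and its mean deviation over the 7 genes was -0.32. Failing replicate 5 was the highest failing heart for Rev3l, Acyp1, Zfp955a and Pmm2 (4 of 7), with a mean deviation of 0.28. Control replicate 1 was the highest control heart for Rev3l, Dusp23, Lpar6 and Zfp955a (4 of 7; 0.21 on average). Control replicate 4 was the lowest control heart for Rev3l, Dusp23 and Zfp955a and the highest for Pitpnc1.

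**Figure D2:**
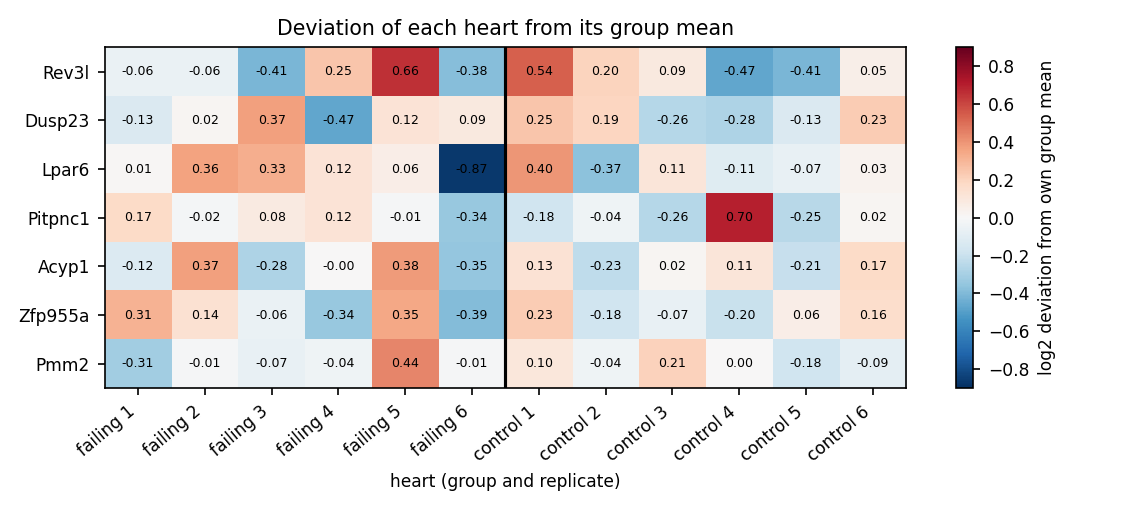
Deviation of each heart from the mean of its own group (log2) for the brightest probe set of each gene, failing hearts left of the black line and control hearts right of it. The extremes are failing replicate 6 for Lpar6 (-0.87) and control replicate 4 for Pitpnc1 (0.70).

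The same limit holds for correlations between the 7 genes, which are given without a test. Over 12 hearts, with group means taken off, Pearson's r over the 21 pairs of genes ran from -0.30 to 0.60 with a median of 0.18, and 16 pairs were above 0. The highest was Rev3l with Pmm2, at r = 0.60 and Spearman's rho = 0.45, and r was 0.18 without the 2 hearts farthest out in Rev3l. The lowest was Dusp23 with Pitpnc1, at r = -0.30 and rho = -0.22. Acyp1 had r from 0.54 to 0.55 and rho from 0.48 to 0.59 with each of Rev3l, Lpar6, Zfp955a and Pmm2. Without 2 hearts these 4 values of r lay between 0.14 and 0.36.

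The brighter gene whose deviations were most like those of Rev3l, over 12 hearts and 7108 genes, was Tmem196 (r = 0.96), which itself differed by -0.27. For Dusp23 it was Larp7 (r = 0.86), for Lpar6 Slc33a1 (r = 0.93), for Pitpnc1 Tmem109 (r = 0.95), for Acyp1 the autophagy protease gene Atg4d (r = 0.90), for Zfp955a Lynx1 (r = 0.87) and for Pmm2 Pank4 (r = 0.89). Each is the highest of 7108 values over few hearts and is given as a description. In Lpar6 and Pitpnc1 a single heart held most of the deviation, as given above.

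Genes related to the 7 were listed by family or pathway, with earlier results of these data known, and were tested. The 12 lists held 391 genes, of which 366 were measured and 183 were among the brighter genes. Over all genes 0 of the 366 passed (limma, adjusted p under 0.05), with 61 (16.7%) at an unadjusted p under 0.05, against 19.1% of all genes. Among the brighter genes 6 of 183 were called lower (3.28%, against 4.73% of all brighter genes) and 5 higher (2.73%, against 5.4%). At such shares most of the single lists below would hold few or 0 calls, so that 0 calls in a short list says little. The median difference of the 183 was -0.01, and that of all brighter genes -0.025. The counts rested on single hearts, as did those over all brighter genes. Without control replicate 4, 13 of 184 were called lower, against 13.6% of all brighter genes, and 17 higher, against 10.3%, the 11 genes among them. Without failing replicate 5, 12 were lower and 7 higher, beside 604 lower and 597 higher among all brighter genes. For the other hearts the counts over all brighter genes, lower then higher, stand in brackets. Without failing replicate 3 there were 0 lower and 1 higher (52 and 133). With failing replicate 4 (91 and 169) or control replicate 6 (61 and 150) left out there were 0 lower and 2 higher. Without failing replicate 1, 4 were lower and 4 higher (200 and 310). Without failing replicate 2, 6 were lower and 3 higher (268 and 302). Leaving out control replicate 3 (105 and 214) or 5 (155 and 273) gave 2 lower and 3 higher. There were 2 of each without failing replicate 6 (92 and 183) or control replicate 2 (94 and 210). Leaving out control replicate 1 gave 1 lower and 2 higher (47 and 136).

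Among the partners of Rev3l in translesion synthesis none was called, by limma, in either direction. Of 14 measured genes, 8 of them brighter, 0 were called in either direction (4 at an unadjusted p under 0.05). Mad2l2, the structural partner of Rev3l in polymerase zeta, averaged 8.69 ± 0.19 in failing hearts and 8.93 ± 0.21 in control hearts, and differed by -0.24 (95% interval -0.50 to 0.02) (limma adjusted p = 0.19 among the brighter genes). Pold2, a further subunit, differed by -0.25 (adjusted p = 0.116), and Rev1 by 0.29 among the dimmer genes (adjusted p = 0.252 over all genes). The smallest p of the list was that of Wdr48, a cofactor of the deubiquitinase Usp1, at 0.54 ± 0.20 (adjusted p = 0.0894). Of 14 other DNA polymerase genes, 7 of them brighter, Poll, a repair polymerase, fell, and 0 rose. Poll ran from 7.85 to 8.40 in failing hearts (median 8.08) and from 8.42 to 9.03 in control hearts (median 8.65), and the groups did not overlap. Its difference was -0.56 ± 0.13 (SE, n = 6 per group, limma adjusted p = 0.0234 among the brighter genes), and the call was lost without failing replicate 3 or 4 or control replicate 6 (highest adjusted p = 0.0553).

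Of the atypical dual specificity phosphatases, 16 genes besides Dusp23, 1 of 10 brighter ones fell and 0 rose. Dusp22 differed by -0.54 ± 0.14 (limma adjusted p = 0.0331), from 9.89 to 10.35 in failing hearts (median 10.22) and from 10.11 to 10.97 in control hearts (median 10.78). Control replicate 4, at 10.11, lay among the failing hearts, and the call was lost without any 1 of 9 hearts (highest adjusted p = 0.0795), under median centring and with the replicate number as a term (adjusted p = 0.0597). Of 9 phosphatases of mitogen-activated protein kinases 4 were brighter genes, and 0 of these 4 were called. Dusp4, a dimmer gene, had the smallest p of the 9. It averaged 5.98 ± 0.51 in failing hearts, against 4.08 ± 0.87 in control hearts (log2, difference 1.91, limma adjusted p = 0.0729 over all genes).

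Around Lpar6, of 19 genes of lysophosphatidic acid signalling and lysolipid metabolism, 12 of them brighter, 3 rose and 1 fell. Over all brighter genes 5.4% were called higher and 4.73% lower. Pla1a, a phospholipase that acts on phosphatidylserine, ran from 10.52 to 11.13 in failing hearts (median 10.93) and from 9.98 to 10.41 in control hearts (median 10.25), with no overlap. It rose by 0.65 ± 0.12 (limma adjusted p = 0.0142), and it was called whichever 1 heart was left out (highest adjusted p = 0.0389). Enpp2, autotaxin, the main enzyme that makes lysophosphatidic acid outside cells, rose by 0.77 ± 0.21 (adjusted p = 0.0382), and failing replicate 5, at 8.03, lay among the control hearts, which ran from 7.88 to 8.37. The lipid phosphate phosphatase gene Plpp1 rose by 0.38 ± 0.10 (adjusted p = 0.0348), and its relative Plpp3 differed by -0.41 ± 0.11 (adjusted p = 0.0329). Without single hearts the call of Enpp2 was lost in 9 of 12 fits, that of Plpp1 in 8 and that of Plpp3 in 7 (adjusted p up to 0.0856, 0.0796 and 0.08). The call of Plpp1 was also lost with the mean of its probe sets and with the replicate number as a term (adjusted p = 0.0746), and that of Plpp3 with the mean of its probe sets and under median centring. Of 3 probe sets of Plpp3, 1 dimmer one differed by 0.07 and the other by -0.41. The enzyme genes Acp6 and Agk were not called (0.53 and 0.01, adjusted p = 0.0617 and 0.961). Lpar1, the bright receptor of the family, averaged 10.43 ± 0.22 in failing hearts and 10.42 ± 0.39 in control hearts, and differed by 0.01 (95% interval -0.40 to 0.41). The receptors Lpar2, Lpar3 and Lpar4 were not among the brighter genes and differed by -0.08, 0.60 and 0.18 (limma adjusted p from 0.144 to 0.971 over all genes). Rb1, whose span overlaps that of Lpar6 on the chromosome, differed by -0.07 (limma adjusted p = 0.827 among the brighter genes).

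Of 21 genes of phosphatidylinositol transfer and synthesis besides Pitpnc1, 15 of them brighter, 1 fell and 1 rose. The kinase gene Pip5k1a rose by 0.66 ± 0.17 (limma adjusted p = 0.0327) and Pip4k2b differed by -0.42 ± 0.12 (adjusted p = 0.0439). Their calls were lost without any 1 of 8 and of 9 hearts (adjusted p up to 0.0765 and 0.0987). The call of Pip4k2b was also lost under median centring, with the mean of its probe sets and with array weights. The other probe sets of Pip4k2b gave -0.48 and, in the dimmest, 0.43. The carriers Pitpna and Pitpnb, the founding members of the family, differed by 0.04 with a 95% interval from -0.13 to 0.21 and by -0.11 with an interval from -0.36 to 0.14. Pitpnm2, a membrane-bound relative among the dimmer genes, had the smallest p of the list. Its failing hearts lay at 6.74 to 8.23 (median 7.37) and its control hearts at 8.22 to 8.89 (median 8.49), a difference of -1.14 ± 0.24 (limma adjusted p = 0.0729 over all genes), and the groups overlapped by failing replicate 5 at 8.23 and control replicate 6 at 8.22.

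Beside Acyp1, its paralogue Acyp2 averaged 9.66 ± 0.25 in failing hearts and 10.12 ± 0.41 in control hearts. It differed by -0.47 (95% interval -0.91 to -0.03) and did not pass (limma adjusted p = 0.0995 among the brighter genes). Of the 6 genes of acyl phosphate metabolism 0 were called, and Pgam2, the muscle phosphoglycerate mutase, had the smallest p (-0.71 ± 0.23, adjusted p = 0.0589). Around Pmm2, 10 of 12 genes for mannose activation were brighter genes, and 0 of these 10 were called in either direction. For assembly of the dolichol-linked sugar 12 of 17 were brighter, and for its transfer and trimming 15 of 17, with 0 called. The dimmer ones were tested over all genes alone, where no gene on the arrays passed. At an unadjusted p under 0.05 there were 3 of the 12, 1 of the 17 and 2 of the 17. The paralogue Pmm1 averaged 10.16 ± 0.18 in failing hearts and 10.01 ± 0.32 in control hearts, and differed by 0.15 (95% interval -0.19 to 0.48). The members of these lists with the smallest p were Hk1 (0.37 ± 0.13), Dolk, the dolichol kinase (-0.31 ± 0.10), and Prkcsh, the glucosidase subunit (0.24 ± 0.09), none of which passed (limma adjusted p between 0.0636 and 0.0884).

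Of 207 other genes with a Zfp symbol, 74 of them brighter, 2 fell and 1 rose. Zfp770 (-0.44 ± 0.11, limma adjusted p = 0.0259) and Zfp629 (-0.54 ± 0.14, adjusted p = 0.0332) fell, and Zfp521 rose by 0.81 ± 0.18 (adjusted p = 0.0214). The calls were lost without single hearts in 5, 9 and 2 of 12 fits (adjusted p up to 0.0622, 0.0795 and 0.0527). A dimmer probe set went the other way for Zfp770 (0.25) and for Zfp629 (0.37), and both calls were lost with the mean of the probe sets. Of 14 genes of the corepressor complex that many zinc finger proteins recruit, 10 were brighter genes and 0 of these 10 were called. The deacetylase gene Hdac2 had the smallest p of the 14 (-0.27 ± 0.08, limma adjusted p = 0.0518).

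**Figure D3:**
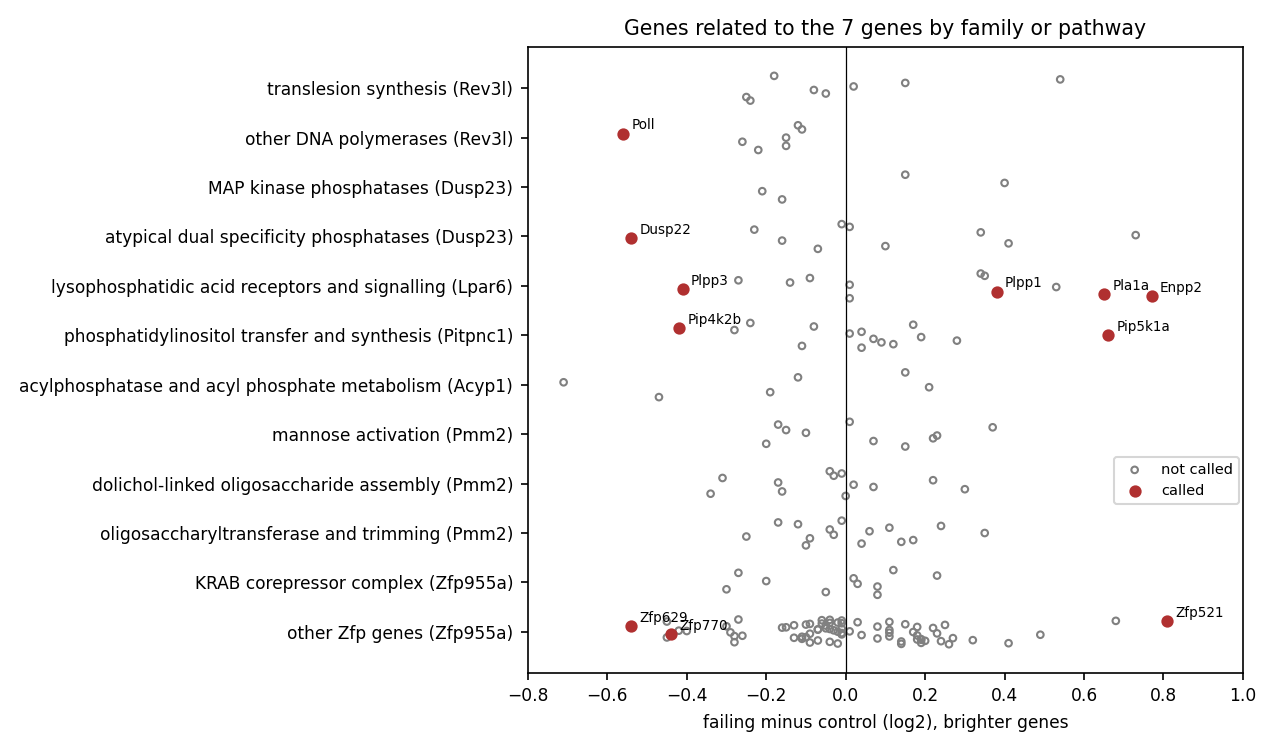
Failing minus control difference (log2) of each brighter gene in the 12 lists of related genes, with the described gene in brackets; red points passed limma at an adjusted p under 0.05 among the brighter genes. The 11 called genes lie on both sides of 0, 6 lower and 5 higher.

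Over quantile normalization, median centring, an offset of 32 and the replicate number as a term the differences ran from -1.29 to -1.23 for Rev3l and from -0.66 to -0.62 for Pmm2. With 1 heart left out they ran from -1.41 to -1.17 for Rev3l and from -0.73 to -0.58 for Pmm2. That the direction held in each fit follows from groups that do not overlap and is no sign of stability.

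**Figure D4:**
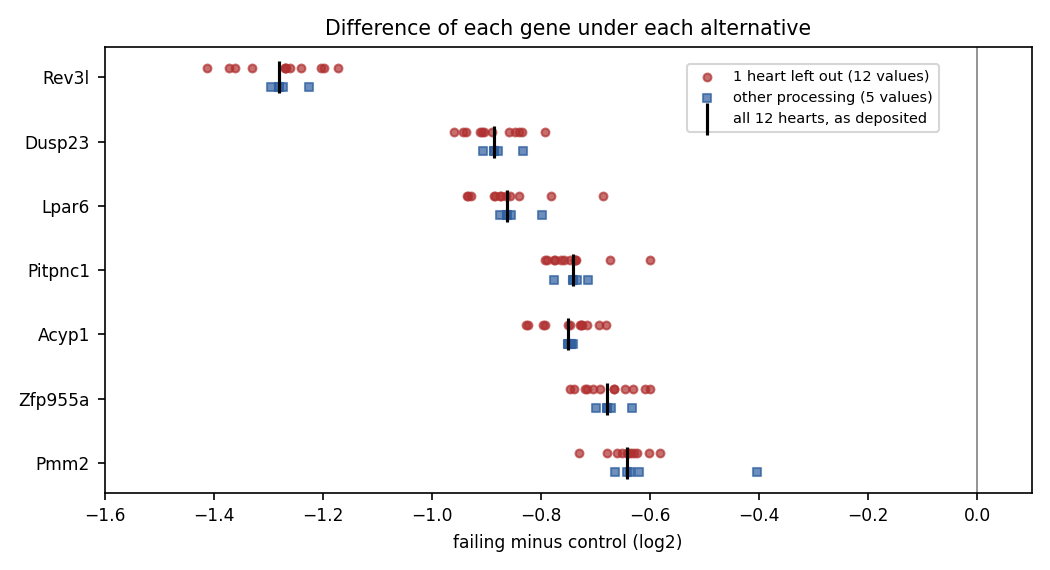
Difference of each gene (failing minus control, log2): black bars with all 12 hearts as deposited, red circles with 1 heart left out, blue squares under other processing. The blue square at -0.40 is Pmm2 with the mean of its 2 probe sets.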

How the data were processed

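Groups and replicate numbers were read from the sample titles. The labels' protocols name Trizol for extraction of total RNA, an RNeasy clean-up and biotin-labelled cRNA. The authors deposited linear intensity values, from 0.1 to 79913.6, for 31099 probe sets on 12 arrays. RMA is the method given, without a version, in the submitters' processing notes, but its output is usually on a log2 scale, so the summary method behind the values is unknown. Scaling all arrays to 1 level hides a shift of most genes. No detection call, scan date or batch was given, and precision is limited by how few arrays there are.

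Values were log2-transformed without an offset after removal of 57 control probe sets. Of the remaining 31042 probe sets 20826 carried 1 gene symbol, 436 several and 9780 none in the array annotation, and the brightest with 1 symbol stood for each gene. Of the 14217 genes 14167 matched RefSeq. Group differences were tested with limma (version 3.58.1, R 4.3.3, lmFit then eBayes, two-sided, Benjamini-Hochberg adjustment), over all genes and among the brighter ones, and the script was tested on simulated data. SEs of related genes are moderated, from the fit that gives the adjusted p beside them. Those of the 7 genes and all 95% intervals are not moderated. The correlations between the 7 genes were planned with a permutation test, which is not reported because the choice of the genes used the same values. Figures were drawn with matplotlib 3.10.9.

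The 7 genes, the lists and the tests were chosen with earlier results of these data known. Named besides the 7 are the genes at the edge of the choice, chromosome neighbours, the gene most alike in its deviations, close paralogues and the called genes of a list, at most 2 higher and 2 lower ones, or its smallest p where none was called. Plpp1, Pold2, Pitpnm2, Acp6 and Agk lie outside that rule and were named after their values were seen. Alternatives changed the normalization, the probe set rule, the offset, the variance model, the filter on dim genes, the weighting of arrays, the replicate number as a term and the hearts included.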

Additional observations from a re-analysis of the deposited data

Results flagged for a closer look

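In 38 sets of 6 hearts, of the 8 probe sets of the 7 genes and of the 11 called related genes, 4 had 1 heart set far from the others by Dixon's criterion. The criterion's chance rate of about 5% holds for sets not chosen by their values. These genes were chosen by theirs, so the 4 are given as a description and are not set against that rate. For Lpar6, failing replicate 6 was at 7.47 (log2), below the next failing heart at 8.35. For Pitpnc1, failing replicate 6 was at 9.00, below the next failing heart at 9.32, and control replicate 4 was at 10.78, above the next control heart at 10.10. For Dusp22, control replicate 4 was at 10.11, below the next control heart at 10.68.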

How the results depend on the processing

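The number of the 7 genes with groups that do not overlap was 6 of 7 under median centring and with the mean of all probe sets. The number of their probe sets with a lower failing mean was 8 of 8 in every alternative run. For the brightest probe set of each gene this direction follows from the choice of the genes and is no sign of stability. The dimmer probe set of Pmm2, which did not enter the choice, differed by -0.16 ± 0.20 (SE) with all 12 hearts. The difference of Pmm2 was -0.40 with the mean of its probe sets. Over all genes the 0 calls became 109 with an offset of 32, 541 with an intensity trend and robust variance, 657 with array weights and 556 among genes at or above the 75th percentile, and ran from 0 to 676 with 1 heart left out (676 without control replicate 4 and 351 without failing replicate 5). Among the brighter genes the 384 higher calls became 862 with array weights and 177 with genes from the 25th percentile up. The 336 lower calls became 178 under median centring, 200 with the mean of all probe sets, 135 with the replicate block, 1052 with array weights and 89 from the 25th percentile up. With 1 heart left out the higher calls ran from 133 to 730 and the lower calls from 47 to 964. The 5 higher related genes became 16 with array weights and 2 from the 25th percentile up, and the 6 lower ones 3 under median centring, 2 with the mean of all probe sets, 15 with array weights and 2 from the 25th percentile up; with 1 heart left out they ran from 1 to 17 and from 0 to 13. The cause was not tested. Replicate numbers do not pair the hearts by any label, and the deviations of same-numbered hearts correlated between -0.118 and 0.259. With the replicate block the related genes had 4 higher and 5 lower calls, Dusp22 (limma adjusted p = 0.0597) and Plpp1 (0.0746) losing theirs. From the 25th percentile up, 8 of the 11 called genes were no longer called, Poll, Pla1a and Zfp521 being the exceptions.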

Other observations

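Of the genes that lie next to the 7 on their chromosomes (RefSeq order, GRCr8), those among the brighter genes were not called in limma. The nearest measured neighbours of Rev3l, Dusp23 and Zfp955a were all dimmer. They were tested over all genes alone, where no gene on the arrays passed, so that the lack of a call says little about them. Of the 14 nearest measured genes, 1 on each side, and of Rb1, which overlaps Lpar6, the lowest adjusted p among the brighter genes was 0.059, for Rcbtb2 next to Lpar6 (8.29 in failing and 8.61 in control hearts, log2). Mlh3, a mismatch repair gene next to Acyp1, differed by -0.34 (adjusted p = 0.0901), and Psmd12, a proteasome subunit gene next to Pitpnc1, by -0.27 (adjusted p = 0.108). The neighbours of Rev3l, Traf3ip2 and Mfsd4b1, were dimmer and differed by 0.94 and -0.31 (adjusted p = 0.245 and 0.369 over all genes). The 7 genes lay on 6 chromosomes.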
